A study of Triticum aestivum with 10 samples.

Results

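Late grain filling in bread wheat was followed as the difference between grain taken at 500 degree days (DD, the daily temperatures summed from pollination) and grain taken at 300 DD. These stages are represented by 4 of the 10 arrays of the series. Each was hybridized with RNA of grain, which the study describes as endosperm and embryo, from the cultivar Récital. The plants grew in a greenhouse without treatment. At each stage replicate 1 came from the 2006 harvest, labelled 490 DD and 290 DD, and replicate 2 from the 2004 harvest, labelled 500 DD and 300 DD. The 500 DD grain was therefore compared with the 300 DD grain within each harvest, and every pair of values below gives replicate 1 and then replicate 2. The labels name no plants or pools behind an array, so the p-values measure the spread between these arrays only.

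Wheat grain first divides its endosperm cells, then fills them with starch and storage proteins, and finally matures and dries. During maturation the embryo accumulates late embryogenesis proteins and dehydrins, which protect cells as water is lost and which respond to the hormone abscisic acid. Over the same period the pericarp, the green outer layer of the young grain, loses its chlorophyll, and cell division in the endosperm has ended. A bulk sample of grain cannot tell a change in the number of cells of a type from a change in RNA per cell.

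A probe set is the group of short probes by which the array measures a transcript, and its level is given on a log2 scale after GCRMA, which subtracts the unspecific binding predicted from each probe's sequence and makes the arrays comparable. Of 61179 probe sets that are no controls, 22592 (36.9%) reached a log2 value of at least 4, the minimum taken here for expression, on 2 or more of the 4 arrays. The other 38587 were not tested, and 36286 of them were under 4 on all 4 arrays. In the tested set, 2331 probe sets (10.3%) passed as higher at 500 DD than at 300 DD and 2242 (9.92%) as lower, by limma with an adjusted p below 0.05, while the median difference over all tested probe sets was 0.001 on the log2 scale. The fit took a mean per stage and the harvest as a block from 8 arrays, those of 200, 250, 300 and 500 DD, and 7878 probe sets had an unadjusted p under 0.05.

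The array labelled 100 DD replicate 2 was used nowhere, since over all probe sets its r was 0.994 against 500 DD replicate 2 but 0.858 against the other array of its own stage. The 500 DD arrays correlated at r = 0.982 with each other and the 300 DD arrays at r = 0.975. The array of 300 DD replicate 1 stood apart in its controls. The poly(A) controls, which are added to the RNA before labelling, averaged 9.21 and 8.85 at 500 DD, against 5.13 and 9.74 at 300 DD, and the probe set for 18S ribosomal RNA was at 6.94 and 6.74 at 500 DD, against 4.77 and 7.42 at 300 DD. The hybridization controls, added later, averaged 10.25 and 9.69 at 500 DD, against 10.51 and 10.92 at 300 DD. Without that array the fit called 802 probe sets higher and 804 lower, and the differences within the 2004 harvest given below do not use it. Its part in the results was not tested.

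The 22592 probe sets were split by where they reached 4. Switched on were 632 (2.8%), under 4 on both 300 DD arrays and at 4 or more on both 500 DD arrays, and switched off were 542 (2.4%), with the opposite pattern. Graded were 19191 (84.9%), measured at 4 or more on all 4 arrays, and the other 2227 were mixed. Since these classes were cut from the same values as the comparison, the counts of calls within them are a description: 426 of the 632 switched on were called higher and 374 of the 542 switched off lower, and of the graded probe sets 1734 were higher and 1645 lower. Most switches lay close to the minimum. The mean level in the expressing stage was within 1 of it for 364 of the 632 switched on (57.6%) and for 299 of the 542 switched off (55.2%).

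The high end of the 2 classes was unequal. Of the switched-on probe sets 12 averaged 10 or more at 500 DD and 5 averaged 12 or more, up to 14.41, against 6 and 0 of the switched-off probe sets at 300 DD, which reached 11.05. Of the 5 highest, 3 belong to the embryo genes Em and EM described below and share their targets, and the others have no gene name. One, from the same transcript cluster as the probe sets of Em, was at 13.21 and 13.10 at 500 DD, against 2.43 and 2.43 at 300 DD, and the other was at 12.79 and 12.58 at 500 DD, against 3.29 and 3.58 at 300 DD. Among those switched off, the highest without a gene name stood at 2.49 and 2.30 at 500 DD, against 11.51 and 10.60 at 300 DD, and the next at 2.65 and 2.92 at 500 DD, against 10.85 and 10.63 at 300 DD.

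**Figure D1:**
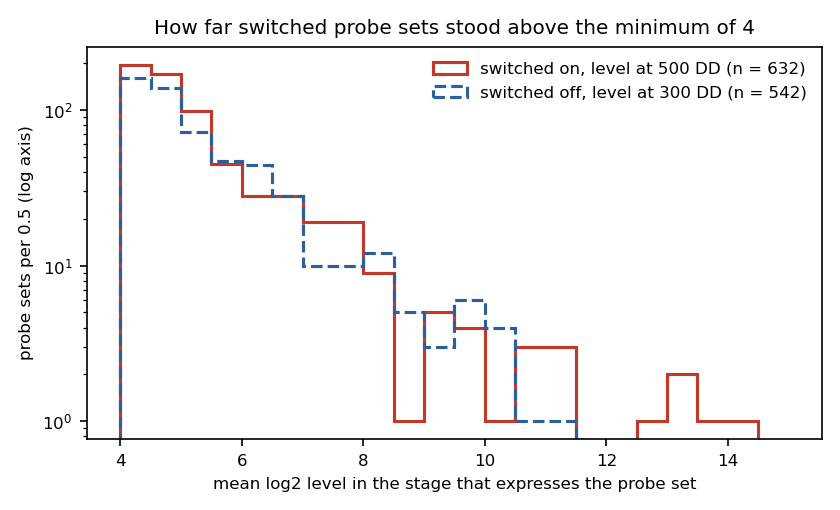
Number of switched probe sets (y, log axis) by their mean log2 level in the stage that expresses them (x, bins of 0.5), with 632 switched on at 500 DD in red and 542 switched off, at their 300 DD level, as a dashed blue line. Both distributions are densest just above 4, and only the switched-on one extends past 12.

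Named genes come from 102 genes with a name in the annotation of the array, 90 of which had a tested probe set. By 1 probe set per gene, 9 of the 90 were higher at 500 DD and 20 were lower, against 10.3% and 9.92% of all tested probe sets. These counts include Em, EM and ALMT1 as higher and BMY1 as lower, which reached 4 on 2 arrays only through the stage where they were high. Of the 12 that were not tested, 3 encode gibberellin oxidases, which make the hormone gibberellin, and 1 encodes the acidic dehydrin COR410. A further 496 genes known only by a locus number had 46 higher and 103 lower.

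Late embryogenesis proteins and dehydrins gave the largest rises among named genes. All 9 tested probe sets of this list, from 4 genes, were higher at 500 DD, against 10.3% of all tested probe sets. For 5 of them, those of Em and EM, the 300 DD mean lay under the minimum, and with these set against the minimum the list had a median difference of 9.39, itself a bound. Of the 5, 3 were switched on and so entered the test only through 500 DD. The others would not have reached 4 on 2 arrays by their 300 DD values alone. The calls of the 5 therefore add no support to the values given here. Em (LOC543480) on chromosome 1A, a small hydrophilic protein of the maturing embryo, was at 14.22 and 14.14 at 500 DD, against 4.48 and 3.14 at 300 DD. EM (LOC543497), a related Em gene on 1B, was at 14.53 and 14.72 at 500 DD, against 4.0 and 3.23 at 300 DD. The stages were far apart in both genes, and on 300 DD replicate 2 both were below the minimum.

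Because the 300 DD means of Em and EM lie under 4, their size is a bound. Set against the minimum, Em was at least 1160-fold higher and EM at least 1580-fold higher. The p-values from limma test the differences as measured, 10.37 for Em (adjusted p = 6.5e-05) and 11.01 for EM (adjusted p = 2.18e-05). They do not test the bounds. A pair of further Em probe sets and 1 of EM were switched on outright. The one ending in _x_at for Em was at 14.52 and 14.30 at 500 DD, against 2.66 and 2.62 at 300 DD. On the arrays of 100, 200 and 250 DD used here, Em lay at 2.16 to 2.17, under the minimum on each. Probes of Em and EM can bind both transcripts.

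Rab15 (LOC543293), a dehydrin induced by abscisic acid, was already expressed at 300 DD and rose by degrees. It was at 11.76 and 11.33 at 500 DD, against 7.05 and 6.37 at 300 DD, a 28.5-fold rise (log2 difference 4.83, standard error 0.23, adjusted p = 0.000144 from limma). Its 3 probe sets differed by 4.83 to 5.28. LEA1 (LOC543476), another late embryogenesis protein, was abundant earlier, at 9.57 and 10.40 at 250 DD, and had the smallest rise of the list. It was at 12.00 and 12.36 at 500 DD, against 11.02 and 11.29 at 300 DD (log2 difference 1.03, standard error 0.26, adjusted p = 0.0377), and this call was lost when either 300 DD, either 500 DD or either 250 DD array was left out (adjusted p up to 0.213).

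Markers of the tissues within the grain moved unequally. Summed on the linear scale, the 8 probe sets of Em, EM and Rab15, which mark the embryo, reached 94600 and 95100 at 500 DD, against 286 and 182 at 300 DD. For 5 of the 8, those of Em and EM, the 300 DD mean lay under the minimum, so these sums do not measure the size of the rise. The starchy endosperm was marked by 21 tested probe sets of gliadins, glutenins, avenin-like proteins and amylase inhibitors. They summed to 325000 and 340000 at 500 DD, against 396000 and 366000 at 300 DD. In limma 0 of the 21 passed, with 0 at an unadjusted p under 0.05. Of all tested probe sets 10.3% were higher and 9.92% lower. Serpins, which are also stored in the endosperm, were not among these markers. Of the serpins, Serpin-Z1C and Serpin-Z2A were called higher, while Serpin-Z2B and WSZ1b did not pass. All 3 probe sets of the oxygen-evolving proteins OEE1 and OEE2 were lower, with sums of 229 and 401 at 500 DD, against 1850 and 1380 at 300 DD. They mark green pericarp, a tissue that the study does not name in its samples. The second probe set of OEE2 reached 4 on 2 arrays only through 300 DD, so its call adds no support. The aleurone was marked by PER1 (LOC543108) alone, a peroxiredoxin of aleurone and embryo, which therefore does not tell these tissues apart. It was at 14.12 and 13.51 at 500 DD, against 13.04 and 12.98 at 300 DD (adjusted p = 0.483 from limma). Oleosins, globulins, chlorophyll a-b binding proteins and Rubisco small subunits have no named probe set here. The part of tissue proportions in the results below was not tested.

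WGA2 (LOC543494), wheat germ agglutinin, a lectin of the embryo that binds chitin, also rose. It was at 11.85 and 10.94 at 500 DD, against 6.79 and 7.40 at 300 DD, a 19.7-fold rise (log2 difference 4.30, standard error 0.44, adjusted p = 0.00181 from limma). The groups were far apart, and the call held without each of the 8 arrays in turn. PIMT (LOC543193), which repairs aged proteins and is known from Arabidopsis seeds for its part in longevity, was at 8.04 and 8.16 at 500 DD, against 5.78 and 5.50 at 300 DD, a 5.50-fold rise (adjusted p = 0.00872). Its call was lost without 300 DD replicate 2 or either 500 DD array (adjusted p up to 0.0676).

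**Figure D2:**
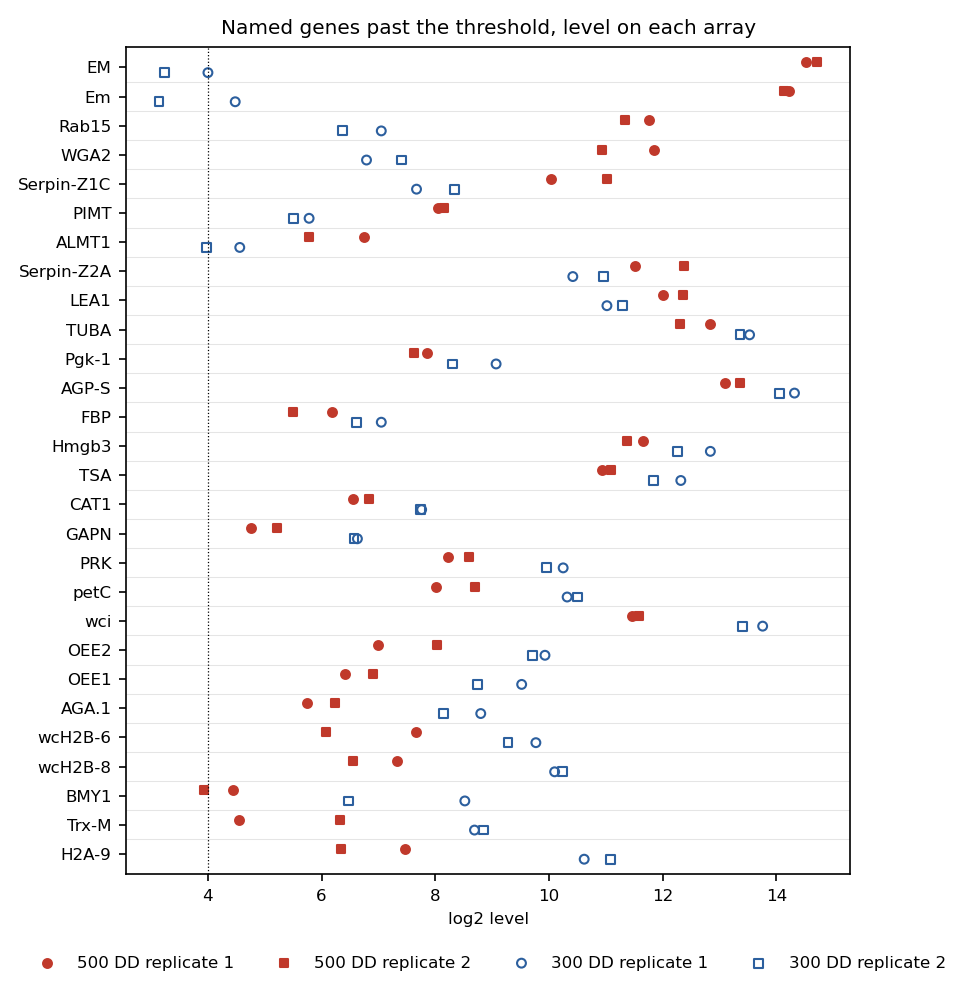
Log2 level (x) of 28 of the 29 named genes past the threshold, without HGGT, on each of the 4 arrays, with 500 DD as filled red symbols above 300 DD as open blue symbols, circles for replicate 1 (2006) and squares for replicate 2 (2004), genes ordered by their difference and the dotted line at the minimum of 4. EM and Em lie near 14 at 500 DD and near the line at 300 DD, and H2A-9 at the bottom has the largest fall, 15.5-fold.

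Among other genes for protein upkeep, the small heat shock protein hsp16.9A (LOC543277) differed between harvests in size. It was at 8.50 and 11.78 at 500 DD, against 7.84 and 8.43 at 300 DD, so that the differences were 0.65 in 2006 and 3.35 in 2004, and it did not pass (adjusted p = 0.0697). FKBP70 (LOC543314), a peptidyl-prolyl isomerase that helps proteins fold, differed by 0.35 (adjusted p = 0.468). ALMT1 (LOC543388), known as a malate transporter of roots activated by aluminium, was at 6.74 and 5.78 at 500 DD, against 4.56 and 3.98 at 300 DD. Limma called it higher (log2 difference 1.99, standard error 0.35, adjusted p = 0.012). By its 300 DD values alone it would not have reached 4 on 2 arrays, so its call adds no support to these values. Its call was lost without 300 DD replicate 1 or either 500 DD array (adjusted p up to 0.0998). The calcium channel TPC1 and the proton pump ha1 did not pass.

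Serpins, inhibitors of proteases that are stored in the endosperm, rose in part. Serpin-Z1C (LOC542985) was at 10.04 and 11.02 at 500 DD, against 7.67 and 8.34 at 300 DD, a 5.76-fold rise (adjusted p = 0.00107 from limma) that held without each of the 8 arrays. Serpin-Z2A (LOC543376) was at 11.51 and 12.38 at 500 DD, against 10.42 and 10.96 at 300 DD, a 2.39-fold rise (adjusted p = 0.0186) lost without 300 DD replicate 2 or either 500 DD array (adjusted p up to 0.123). Serpin-Z2B (LOC543382) was at 12.73 and 12.64 at 500 DD, against 11.11 and 11.47 at 300 DD, and its difference of 1.39 did not pass (adjusted p = 0.0748), though it did with only the 4 arrays of 500 and 300 DD and the replicate block (adjusted p = 0.0262). In each harvest all 3 serpins stood higher at 500 DD than at 300 DD, with differences of 1.09 to 2.68. The related WSZ1b (LOC100037548) was at 12.72 and 13.46 at 500 DD, against 12.91 and 13.35 at 300 DD, and did not pass (adjusted p = 0.963).

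None of the other genes on the list of inhibitors passed. Over the list of amylase and protease inhibitors 2 of 12 tested probe sets were higher and 0 lower, against 10.3% and 9.92% of all tested probe sets, with a median difference of 0.04. The xylanase inhibitor XIP-I (LOC542997), which acts on enzymes of fungi, was at 14.96 and 14.54 at 500 DD, against 13.42 and 13.71 at 300 DD. It did not pass (difference 1.19, standard error 1.03, adjusted p = 0.46), and its replicates were widely spread earlier, at 4.83 and 9.14 at 200 DD. A fit of only the 4 arrays of 500 and 300 DD with the replicate block, which leaves that spread out, gave an adjusted p of 0.0494. The amylase inhibitors WMAI-1 and both ATI genes, by their brightest probe sets, lay between 14.52 and 15.00 on all 4 arrays.

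Storage protein transcripts, which encode the gluten of flour, were high at both stages. None of the 16 tested probe sets of gliadins, glutenins and avenin-like proteins passed in limma, and 0 had an unadjusted p under 0.05. Of all tested probe sets 10.3% were higher and 9.92% lower. The differences of the 16 ran from -0.58 to 0.13 with a median of -0.16. The gamma-gliadin GAG56D (LOC543214) was at 13.54 and 14.14 at 500 DD, against 14.12 and 14.10 at 300 DD. The alpha-gliadin gli-2 (LOC543385) had the largest difference among these genes by their brightest probe sets, at 11.65 and 11.76 at 500 DD, against 12.16 and 12.19 at 300 DD, -0.47 with an adjusted p of 0.273. Over all tested probe sets, the median 95% interval, not adjusted for the number of tests, reached 0.62 to either side of the difference. The smallest difference called was 0.68, so smaller changes, and in some probe sets larger ones, were not detectable. Thionins, small antimicrobial proteins of the endosperm, were likewise high. THI1.2 was at 13.60 and 13.81 at 500 DD, against 13.93 and 14.28 at 300 DD, and TTHV at 13.74 and 13.80 at 500 DD, against 13.31 and 13.38 at 300 DD, and neither passed.

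LTP3 (LOC543095), a lipid transfer protein, was split by probe set. The brighter one was at 13.16 and 12.24 at 500 DD, against 13.90 and 13.62 at 300 DD (difference -1.07, adjusted p = 0.0656), while the other, with a difference of -1.57, passed (adjusted p = 0.00764 from limma). Over the list of small defence proteins and lectins 1 of 9 tested probe sets was higher, that of WGA2, and 1 was lower, with a median of -0.12, so the counts were near the 10.3% and 9.92% of all tested probe sets.

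Of 3 tested probe sets for starch synthesis, 2 were lower at 500 DD, against 9.92% of all tested probe sets, and 0 higher. AGA.1 (LOC543278), the large subunit of ADP-glucose pyrophosphorylase, the enzyme that makes the sugar nucleotide used for starch, was at 5.75 and 6.24 at 500 DD, against 8.80 and 8.15 at 300 DD, 5.56-fold lower (adjusted p = 0.00318 from limma). The small subunit AGP-S (LOC543299) was 1.95-fold lower, at 13.09 and 13.36 at 500 DD, against 14.32 and 14.06 at 300 DD (adjusted p = 0.0263). The call of AGP-S was lost without either 300 DD array, 500 DD replicate 1 or either 250 DD array (adjusted p up to 0.191), while that of AGA.1 held without each array. The granule-bound starch synthase GBSS (LOC543395), which makes amylose, was at 12.08 and 11.92 at 500 DD, against 12.72 and 12.91 at 300 DD, and did not pass (adjusted p = 0.0952). BMY1 (LOC543318), a beta-amylase, which breaks starch down, was at 4.44 and 3.93 at 500 DD, against 8.52 and 6.47 at 300 DD (log2 difference -3.31, standard error 0.38, adjusted p = 0.00275). It reached the minimum at 500 DD after 11.77 and 10.53 at 200 DD, so the whole size of its fall is not measured, and its call was lost with only the 4 arrays and no replicate block (adjusted p = 0.0585). By its 500 DD values alone it would not have reached 4 on 2 arrays, so its call adds no support to these values.

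Core histones, around which DNA is wound, are made mostly while DNA replicates. Of 18 tested probe sets from 5 histone genes, 15 were lower, against 9.92% of all tested probe sets, and 0 higher, with a median of -3.33 when the 2 whose 500 DD mean lay under the minimum were set against it. By 1 probe set per gene 3 of the 5 genes were lower. H2A-9 (LOC732714) was at 7.47 and 6.34 at 500 DD, against 10.62 and 11.09 at 300 DD, 15.5-fold lower (adjusted p = 0.00262 from limma). The H2B genes wcH2B-8 (LOC543184), at 7.33 and 6.55 at 500 DD, against 10.10 and 10.24 at 300 DD, and wcH2B-6 (LOC543183), at 7.66 and 6.07 at 500 DD, against 9.77 and 9.28 at 300 DD, were 9.39-fold and 6.32-fold lower (adjusted p = 0.00241 and 0.00473). All 3 calls held without each of the 8 arrays. With no filter on low values H2A-9 and wcH2B-6 just missed the threshold (adjusted p = 0.0501 and 0.0611), and wcH2B-6 also missed it with only the 4 arrays and no replicate block (adjusted p = 0.0589). Each gene was lower in 2004 by more than in 2006. Many probe sets of these genes can match other histone copies, so the 15 are not independent. Some of the 15, among them probe sets of wcH2B-8, would not have reached 4 on 2 arrays by their 500 DD values alone. The calls of those add no support for a fall. The probe sets whose values are given above were at 4 or more on all 4 arrays.

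Other histone genes did not pass. H2A-3 (LOC732713) was at 7.75 and 7.80 at 500 DD, against 8.53 and 8.66 at 300 DD (difference -0.82, adjusted p = 0.0917), with a second probe set at 0.04. H2A-2 (LOC732712), at 4.35 and 3.76 at 500 DD, against 5.35 and 4.45 at 300 DD, did not pass (adjusted p = 0.21). The chromatin protein Hmgb3 (LOC543333), a high mobility group protein, was lower by 2.05-fold, at 11.66 and 11.37 at 500 DD, against 12.84 and 12.26 at 300 DD (adjusted p = 0.0389), while a second probe set missed the threshold (adjusted p = 0.0824). Its call was lost without any 1 of the arrays of 500, 300 and 200 DD (adjusted p up to 0.258). The TATA-binding protein TBP1 and the zinc finger protein WZF1 differed by 0.13 and 1.49 and did not pass. WZF1 differed by 1.52 in 2006 and by 1.46 in 2004, but its replicates were widely spread earlier, at 4.13 and 9.37 at 200 DD. A fit of only the 4 arrays of 500 and 300 DD with the replicate block, which leaves that spread out, gave it an adjusted p of 0.0175.

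Of the genes of the cytoskeleton, which divides and shapes cells, 1 passed. The alpha-tubulin TUBA was at 12.84 and 12.30 at 500 DD, against 13.53 and 13.36 at 300 DD (1.83-fold lower, adjusted p = 0.0383 from limma). Of the 13 tested probe sets of its list it alone passed, against 10.3% higher and 9.92% lower of all tested probe sets. Its call was lost without either 300 DD array, 500 DD replicate 2 or any of the 200 and 250 DD arrays (adjusted p up to 0.187), and a second probe set missed the threshold (adjusted p = 0.175). The beta-tubulin tubb3 (LOC543473), with a difference of -0.74, missed the threshold narrowly (adjusted p = 0.0515). XTH, a xyloglucan endotransglycosylase that loosens cell walls, was at 4.90 and 2.98 at 500 DD, against 5.79 and 5.06 at 300 DD (adjusted p = 0.0747), and profilin PRO1 differed by -0.60 (adjusted p = 0.105).

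Of the 5 photosynthesis genes tested, 4 were lower at 500 DD by their brightest probe sets. Of their 9 tested probe sets 6 were lower and 0 higher, against 9.92% lower over all tested probe sets, with a median of -1.70. Among the 6 is the second probe set of OEE2, at 3.94 and 4.39 at 500 DD, against 7.20 and 6.79 at 300 DD. By its 500 DD values alone it would not have reached 4 on 2 arrays, so its call adds no support for a fall. OEE1 (LOC543291), a subunit of the complex that splits water in photosystem II, was at 6.42 and 6.90 at 500 DD, against 9.52 and 8.74 at 300 DD, 5.54-fold lower (adjusted p = 0.00401 from limma). OEE2 (LOC543290) of the same complex was 4.95-fold lower (adjusted p = 0.00673), and petC, the Rieske protein of the electron chain, 4.15-fold lower, at 8.01 and 8.70 at 500 DD, against 10.32 and 10.50 at 300 DD (adjusted p = 0.0026). At 200 DD petC had been at 11.18 and 11.36 and OEE1 at 10.85 and 10.62, above their values at 300 DD.

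PRK (LOC543283), phosphoribulokinase of the Calvin cycle, was at 8.22 and 8.59 at 500 DD, against 10.25 and 9.95 at 300 DD, 3.24-fold lower (adjusted p = 0.0124 from limma). Its call was lost without 300 DD replicate 1 or either 500 DD array (adjusted p up to 0.0893), and that of OEE2 without 300 DD replicate 1 (adjusted p = 0.064). For rbcl (LOC100049018), the large subunit of Rubisco, which is encoded in the chloroplast, the brightest of 4 tested probe sets was at 13.95 and 14.03 at 500 DD, against 14.52 and 15.00 at 300 DD, and did not pass (adjusted p = 0.0602), while 1 of the other 3 did (difference -1.20, adjusted p = 0.0293). In all 4 nuclear genes of this list, OEE1, OEE2, petC and PRK, the fall was larger in 2006 than in 2004, the opposite order to the histones, but the difference between harvests was not past the threshold for any probe set tested.

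Several redox genes fell, among them genes of the chloroplast. Trx-M (LOC542973), an m-type thioredoxin that regulates chloroplast enzymes, was at 4.55 and 6.32 at 500 DD, against 8.69 and 8.85 at 300 DD, 10.1-fold lower (adjusted p = 0.00257 from limma), a call that held without each of the 8 arrays. TSA (LOC542768), a chloroplast peroxiredoxin, was at 10.93 and 11.10 at 500 DD, against 12.32 and 11.84 at 300 DD, 2.09-fold lower (adjusted p = 0.0249). The catalase CAT1, which removes hydrogen peroxide, was at 6.56 and 6.83 at 500 DD, against 7.76 and 7.74 at 300 DD, 2.08-fold lower (adjusted p = 0.0272). The calls of TSA and CAT1 were lost without several single arrays, 300 DD replicate 1 and both 500 DD arrays for each, with either 250 DD array besides for TSA and 300 DD replicate 2 for CAT1 (adjusted p up to 0.186 and 0.176).

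Of the 12 tested probe sets for redox genes 5 were lower, against 9.92% of all tested probe sets, and 0 higher, with a median of -0.91. The fourth gene lower by its brightest probe set was HGGT (LOC543094), which makes tocotrienols, a form of vitamin E, and is named here after its values were seen (difference -1.04, adjusted p = 0.0382). The peroxidase Prx1 (LOC606328) was at 3.63 and 5.17 at 500 DD, against 6.13 and 6.14 at 300 DD by its brightest probe set, which did not pass (adjusted p = 0.105). Its probe set ending in _a_at was switched off, at 3.13 and 3.86 at 500 DD, against 6.15 and 5.34 at 300 DD, at least 3.35-fold lower. It entered the test only through 300 DD, so its call, which is among the 5 lower, is no support for a fall. The only named gene switched off by its brightest probe set was lgul (LOC542984), a lactoylglutathione lyase, just inside the limit at 3.32 and 3.92 at 500 DD, against 4.41 and 4.31 at 300 DD (adjusted p = 0.0955). Just outside it lay RPL9 (LOC543077), a chloroplast ribosomal protein, at 3.97 and 4.22 at 500 DD, against 4.76 and 5.19 at 300 DD.

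Sugar metabolism gave 3 falls among 7 tested probe sets, against 9.92% of all tested probe sets, and 0 rises, with a median of -0.82. GAPN, a glyceraldehyde phosphate dehydrogenase of the cytosol that yields NADPH, was at 4.76 and 5.22 at 500 DD, against 6.63 and 6.57 at 300 DD, 3.06-fold lower (adjusted p = 0.0165 from limma). FBP, the chloroplast fructose bisphosphatase, was 1.98-fold lower (adjusted p = 0.0425) and Pgk-1 (LOC543496), a phosphoglycerate kinase, 1.93-fold lower (adjusted p = 0.0288), and the second tested probe set of FBP, with a difference of -0.33, did not pass. The calls of all 3 were lost with single arrays left out, GAPN without 300 DD replicate 1 or either 500 DD array, FBP without any array of 500, 300 or 250 DD, and Pgk-1 without either 300 DD array, 500 DD replicate 1 or either 250 DD array (adjusted p up to 0.118, 0.242 and 0.207). The fructan exohydrolase 6-FEH (LOC780575), which breaks down fructans, was at 8.48 and 8.41 at 500 DD, against 7.22 and 7.89 at 300 DD, with a second probe set that went the other way (0.89 and -0.82), and neither passed.

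**Figure D3:**
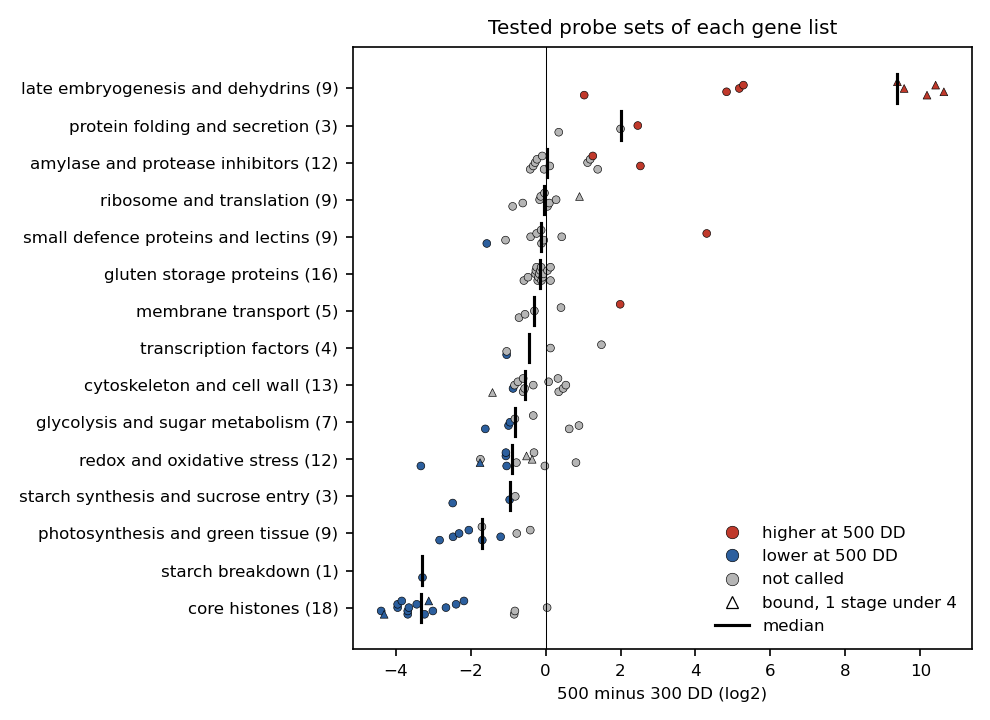
Log2 difference, 500 minus 300 DD (x), of every tested probe set in each gene list (y, number of tested probe sets in brackets), red where higher, blue where lower and grey where not past the threshold, with the list median as a black bar and triangles for probe sets whose mean in 1 stage was under 4, drawn at their difference from 4. The late embryogenesis list lies furthest right, with a median of 9.39 that is a bound, and the core histones furthest left among lists of several genes, with a median of -3.33, while the gluten proteins sit around 0.

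None of the 9 tested probe sets for ribosomal proteins and translation factors passed in limma, and 2 were at an unadjusted p under 0.05. Of all tested probe sets 10.3% were higher and 9.92% lower. The median difference of the 9 was -0.03. The initiation factors eIF4E (LOC543485), at 10.46 and 10.44 at 500 DD, against 10.36 and 9.98 at 300 DD, and Eif4B (LOC543417), at 10.03 and 10.06 at 500 DD, against 10.78 and 10.53 at 300 DD, differed by 0.28 and -0.61. The cap-binding protein NCBP differed by -0.16. Outside the lists, wci (LOC542996), a gene of the 7D chromosome with no role assigned here, was abundant and 4.17-fold lower. It was at 11.47 and 11.59 at 500 DD, against 13.76 and 13.41 at 300 DD (adjusted p = 0.00438 from limma). Its call held without each of the 8 arrays.

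The size of the graded changes was alike in both directions. The median difference was 1.35 for the 1734 graded probe sets called higher and -1.39 for the 1645 called lower, and the largest were 7.40 and -8.36. Differences of at least 2 on the log2 scale were reached by 362 called higher and 431 called lower, and of at least 4 by 56 and 57. The smallest difference called among all tested probe sets was 0.68. Over the 19191 graded probe sets the differences within 2006 and within 2004 correlated at r = 0.794, across probe sets that share the same 4 arrays, and 14348 (74.8%) had the same sign in both.

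The harvests moved together at the large changes. Of the graded probe sets, 276 were up by at least 2 in both harvests and 306 were down by at least 2 in both, while 1 moved by at least 2 in opposite directions. Whether the step from 300 to 500 DD differed between harvests was tested with an interaction of harvest and stage, added after the data were seen. It called 0 of the 22592 probe sets (lowest adjusted p = 0.103 from limma), with 904 at an unadjusted p under 0.05.

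**Figure D4:**
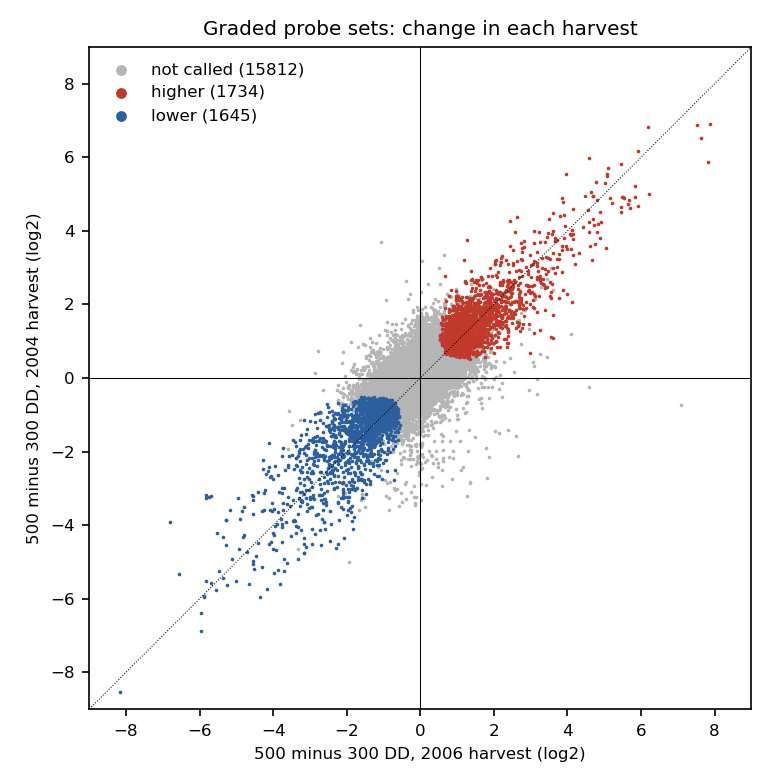
Log2 difference, 500 minus 300 DD, of the 19191 graded probe sets within the 2006 harvest (x) and within the 2004 harvest (y), with 1734 called higher in red, 1645 called lower in blue and 15812 not called in grey, and the dotted line where both are equal. The called probe sets run along the line in both directions.

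Earlier stages place these classes in the course of development. Of the 632 switched on, 327 (51.7%) were under 4 on each of the 5 other arrays used, those of 100 DD replicate 1 and of 200 and 250 DD, and 26 were at 4 or more on all 5. The share of them at 4 or more was 39.4% on the 100 DD array, between 6.33% and 25.8% on the 4 arrays of 200 and 250 DD, and 0 at 300 DD by definition, so that more of them had been above the minimum at 100 DD than at 250 DD. Of the 542 switched off, 358 (66.1%) had been at 4 or more on all 5 arrays, and their median level, 5.56 and 5.55 at 200 DD, was already lower at 300 DD, at 5.04 and 4.73.

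The graded classes called higher or lower were chosen by the step from 300 to 500 DD, so their course is a description and shows no timing of its own. The probe sets called higher had medians of 6.46 and 6.33 at 200 DD, 6.52 and 6.25 at 250 DD, 6.54 and 6.43 at 300 DD and 8.09 and 8.07 at 500 DD. Those called lower had medians of 8.75 and 8.82 at 200 DD, 8.73 and 8.75 at 250 DD, 8.63 and 8.49 at 300 DD and 6.75 and 6.67 at 500 DD.

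**Figure D5:**
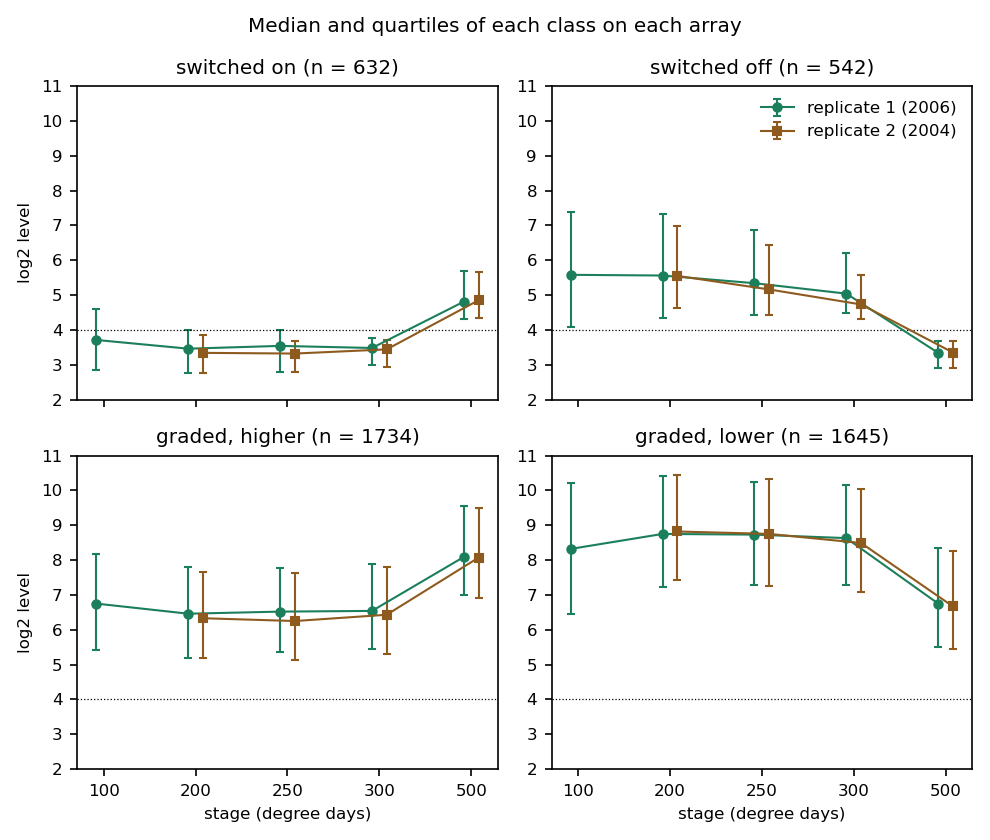
Median log2 level (points) and quartiles (bars) of the switched-on, switched-off, graded higher and graded lower probe sets (y) at each stage in DD (x), with replicate 1 (2006) as green circles and replicate 2 (2004) as brown squares, replicate 1 alone at 100 DD, and the dotted line at the minimum of 4. The graded classes, chosen by their step from 300 to 500 DD, reach medians of 8.09 and 8.07 at 500 DD in the higher class and 6.75 and 6.67 in the lower.

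The direction of change varied with the level before 300 DD, taken as the mean of the 4 arrays of 200 and 250 DD. The difference does not use these arrays, but the calls take part of their spread from them. Among the 7339 probe sets with a mean from 4 to under 6 there, 9.96% were higher at 500 DD than at 300 DD and 4.73% lower. Among the 4455 from 8 to under 10, 6.44% were higher and 14.4% lower, and among the 1762 from 10 to under 12, 3.52% were higher and 23.2% lower. The share lower grew no further in the 534 at 12 or more, of which 1.69% were higher and 21.9% lower. The median difference over these 4 groups was 0.07, -0.13, -0.32 and -0.25. The 1335 probe sets under 4 at those stages passed the minimum only through 300 or 500 DD, so their 43.8% higher is set in part by the filter. Those from 4 to under 6 also lay near the minimum, and the part of the filter in their shares was not tested.

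The suffixes _a_at, _s_at and _x_at mark probe sets that may bind more than 1 transcript, among them the copies of a gene on the 3 wheat genomes. They made up 8280 of the 22592 tested, with 9.54% higher and 11.1% lower, against 10.8% and 9.23% of the other 14312. Genes placed on the A, B and D genomes by the annotation, 195, 174 and 209 of them, were higher in 7.18%, 12.6% and 9.09% of cases and lower in 19%, 23.6% and 20.6%, with medians of -0.19, -0.17 and -0.21, and these counts were not tested against each other. Of all tested probe sets 10.3% were higher and 9.92% lower, with a median of 0.001. Each gene counts by its brightest probe set, and the part of the level in these shares was not tested.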

How the data were processed

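RNA of grain was hybridized to the Affymetrix wheat array. The log2 values deposited by the authors come from GCRMA in Bioconductor (version: not given in the sources used here). All 10 columns were mapped, 0 columns were left out, and 100 DD replicate 2 entered no result. Probe sets that are no controls and reached 4 on at least 2 of the 4 arrays were fitted with limma 3.58.1 (R 4.3.3, statmod 1.5.0), with stage means and harvest as a block over 8 arrays, and Benjamini-Hochberg adjusted p under 0.05 over all probe sets tested as the threshold. Residual and prior degrees of freedom were 3 and 3.33. The functions were tested on simulated data.

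The replicate number was tied to a harvest by the labelled degree days nearest to the sampling times in the study's methods. As a check of the pairing, deviations of replicate 1 from its stage mean correlated between stages at 0.26 to 0.699 in all 6 pairs of stages. The study's methods describe a 2-group t-test with equal variance between groups, without genes of extreme variance, and Bonferroni adjustment. Versions with a variance per probe set and with a common variance were alternatives here, beside other blocks, filters, scalings and arrays left out.

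Gene names came from the annotation table of the array, in which 1273 probe sets had 1 gene and 59906 none, and 1272 of the 1273 matched the RefSeq gene table. The RefSeq table used here holds no descriptions, so lists were assigned by hand from gene names. Per gene the probe set with the highest mean over the 4 arrays was used. The rule named up to 8 switched-on and switched-off genes, up to 8 graded genes in each direction with the largest difference, and up to 4 per list by absolute difference, 55 genes in all. The comparison, lists and rules were chosen with earlier results of these data known. Intensities of single probes and promoter sequences were not used here. The precision is limited by the 2 arrays of each stage.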

Additional observations from a re-analysis of the deposited data

How the results depend on the processing

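Median centring and quantile normalization changed neither direction nor call of any of the 55 genes named by the rule, and other alternatives with all 4 arrays of 500 and 300 DD leave the differences as they are by construction. Of the 28 called, 14 kept their call without each of the 8 arrays in turn. The counts of 2331 higher and 2242 lower became 1731 and 1666 with no replicate block, where 7 of the 28 named calls were lost (Serpin-Z2A, LEA1, ALMT1, TUBA, GAPN, FBP and Pgk-1). With only the 4 arrays and no replicate block the counts were 1263 and 1094 (graded 872 and 721), and 12 named calls were lost. Without a filter they were 1199 and 997 (graded 766 and 712), where 61179 probe sets were tested and 17 named calls were lost, OEE1 among them (adjusted p = 0.0503), and after Bonferroni adjustment 98 and 47 (graded 27 and 18), with 25 named calls lost. The methods' t-test called 1 higher and 0 lower by either adjustment (graded 1 and 0), with all 28 named calls lost, and with a variance common to all probe sets and Bonferroni adjustment 811 and 859 (graded 471 and 491), with 11 lost. Without the probe sets of the suffixes _a_at, _s_at and _x_at the counts were 1506 and 1290 (graded 1084 and 881).

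Leaving out 1 array gave 802 to 2186 higher, 804 to 2111 lower, 475 to 1618 graded higher and 500 to 1502 graded lower. The lowest of each came without 300 DD replicate 1, where the lone array of the stage is assumed to vary like the other stages. Removing 300 DD replicate 2 gave 928 and 1023, 500 DD replicate 1 1489 and 1274, and 500 DD replicate 2 1162 and 1358. In graded probe sets either 250 DD array left out gave 1095 lower. Directions that turned belong to genes not past the threshold. Over the 8 arrays left out in turn, the differences ran from -0.53 to 0.02 for avnlb, from -0.52 to 0.13 for gli-2 (LOC543212), from -0.05 to 0.91 for TTHV, from -0.04 to 2.42 for XIP-I and from -0.49 to 0.16 for NCBP. The turns came without 300 DD replicate 1 for avnlb and gli-2 (0.07), without 300 DD replicate 2 for TTHV (-0.04), without 500 DD replicate 1 for XIP-I, NCBP and TTHV, and without 500 DD replicate 2 for gli-2. Switched off were 325 with a minimum of 3, and with a gap from under 4 to at least 6, 102 were switched on and 93 off. The causes were not tested, except that fewer arrays or more probe sets in the adjustment act by construction.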
